A study of Mus musculus with 2 samples.

Results

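The genes described here are the neuronal SNARE proteins Snap25, Snap47, Stx1a, Vamp1 and Vamp2 and the complexins Cplx1, Cplx2 and Cplx3. They are 8 of the 55536 annotated mouse genes measured, and they were chosen by name for their part in synaptic vesicle fusion. Total RNA, 300 ng per library, came from hippocampus of B6CASTF1/J animals, which are first-generation crosses, all male and 25 days old, and was sequenced. There is 1 group with 2 libraries, called replicate 1 and replicate 2, and no treatment, genotype or age is compared. The tissue label reads "layer of hippocampus" without naming a layer. The labels give both libraries the same donor identifier and separate biosamples, so the spread between them may be partly technical.

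SNARE proteins drive the fusion of transmitter-filled vesicles with the plasma membrane. Syntaxin-1 and SNAP-25 on the plasma membrane zipper with synaptobrevin (VAMP) on the vesicle into a bundle of helices, which pulls the membranes together. Complexins are small soluble proteins that bind the partly assembled bundle, and they both hold back spontaneous fusion and promote the fast release that calcium triggers through synaptotagmin. Afterwards the ATPase NSF and its SNAP adaptors take the used bundle apart. The hippocampus, rich in glutamatergic synapses, is a standard tissue for the study of this cycle.

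The letters that tell the main forms apart are shown first, taken from the GENCODE M21 transcripts on the mm10 build. Snap25 has alternative copies of exon 5, both of 118 bases, which code for the end of the first SNARE helix and the cysteines through which the protein is anchored to the membrane. The downstream copy, in Snap25-201 (chr2:136770057-136770174, plus strand), gives the form called SNAP-25b. The upstream copy, in Snap25-202 (chr2:136769743-136769860, plus strand), gives SNAP-25a. Capitals mark the 31 bases that differ, and 9 codons code for another residue.
Snap25-201 exon 5: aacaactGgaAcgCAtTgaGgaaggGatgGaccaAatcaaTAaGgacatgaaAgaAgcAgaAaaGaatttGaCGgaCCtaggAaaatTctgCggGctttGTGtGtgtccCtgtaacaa
Snap25-202 exon 5: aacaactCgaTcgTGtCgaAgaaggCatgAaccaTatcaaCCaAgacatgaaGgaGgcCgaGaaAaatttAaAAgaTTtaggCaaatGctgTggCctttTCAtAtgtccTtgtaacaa

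Vamp1 and Vamp2 code for closely related vesicle SNAREs. Their exon 3, which codes for most of the SNARE motif, shows how far their RNAs can be told apart. It lies at chr11:69089731-69089889 (plus strand) in Vamp2 and at chr6:125218911-125219069 (plus strand) in Vamp1. Capitals mark the 26 of 159 bases that differ, which leaves 83.6% identical, and 2 of 53 codons code for another residue. The longest run of bases common to the transcripts Vamp1-201 and Vamp2-201 is 18.
Vamp2-201 exon 3: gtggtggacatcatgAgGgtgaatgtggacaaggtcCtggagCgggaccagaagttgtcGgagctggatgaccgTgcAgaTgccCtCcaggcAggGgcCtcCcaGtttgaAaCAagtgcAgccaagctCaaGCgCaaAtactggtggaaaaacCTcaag
Vamp1-201 exon 3: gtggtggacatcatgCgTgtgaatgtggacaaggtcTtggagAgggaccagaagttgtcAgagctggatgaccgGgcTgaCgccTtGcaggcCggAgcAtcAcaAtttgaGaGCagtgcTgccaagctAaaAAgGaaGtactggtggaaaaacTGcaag

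Cplx1 and Cplx2 are the closest pair of complexins. Their coding sequences are both 402 bases long and 79.6% identical, with 82 bases and 21 codon residues differing. Exon 3, shown because it codes for much of the helical part that binds the SNARE bundle, lies at chr13:54378812-54378987 (plus strand) in Cplx2 and at chr5:108525392-108525567 (minus strand) in Cplx1. Capitals mark the 38 of 176 bases that differ. The longest run of bases common to the 2 transcripts is 32.
Cplx2-201 exon 3: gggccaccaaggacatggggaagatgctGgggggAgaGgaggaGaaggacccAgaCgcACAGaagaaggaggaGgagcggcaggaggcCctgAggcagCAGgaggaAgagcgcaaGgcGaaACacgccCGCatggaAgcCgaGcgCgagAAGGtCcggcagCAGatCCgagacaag
Cplx1-201 exon 3: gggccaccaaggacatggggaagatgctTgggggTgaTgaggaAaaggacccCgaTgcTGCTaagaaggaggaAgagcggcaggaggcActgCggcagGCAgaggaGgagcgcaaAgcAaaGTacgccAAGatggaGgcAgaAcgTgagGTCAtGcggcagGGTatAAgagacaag

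The libraries held 30635891 and 35713471 expected counts, which are reads assigned to genes by the RSEM program. Levels are given in TPM, a gene's part of all transcripts of a library after division by transcript length, from its gene table, as mean ± SD over 2 libraries. The deposited posterior SD of the expected count was 0 to 0.03 for the 8 genes, so few reads were split between a member and another gene. A second deposited table, from the kallisto program, gave 1.57 times the RSEM level in the median over 8097 protein-coding genes with at least 10 TPM, with 90% of genes between 1.24 and 2.25 times. Marker genes matched the tissue label. All 5 excitatory hippocampal markers exceeded 10 TPM, led by Camk2a (1554 ± 98.9 TPM) and Slc17a7 (664 ± 39.2 TPM), and so did all 5 pan-neuronal ones, led by Syp (858 ± 86.1 TPM) and Eno2 (413 ± 13.8 TPM). Astrocyte and oligodendrocyte markers were also abundant, with 4 of 4 above 10 TPM in each list. In bulk tissue, fewer cells of a type and less RNA per cell cannot be told apart.

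Of the 8 genes, 7 had at least 10 TPM, a level that 36.8% of 22028 protein-coding genes reached, and the remaining gene was Cplx3. The median level of the 8 was 195 TPM, beside 15.1 TPM over the protein-coding genes with at least 1 TPM. Together they made up 0.444% of protein-coding TPM in replicate 1 and 0.467% in replicate 2. The order of levels was the same in both libraries, running from Snap25 through Vamp2, Cplx2, Cplx1, Snap47, Stx1a and Vamp1 to Cplx3. For all 7 pairs of neighbours in that order, the values of the higher gene lay above those of the lower gene in both libraries.

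**Figure D1:**
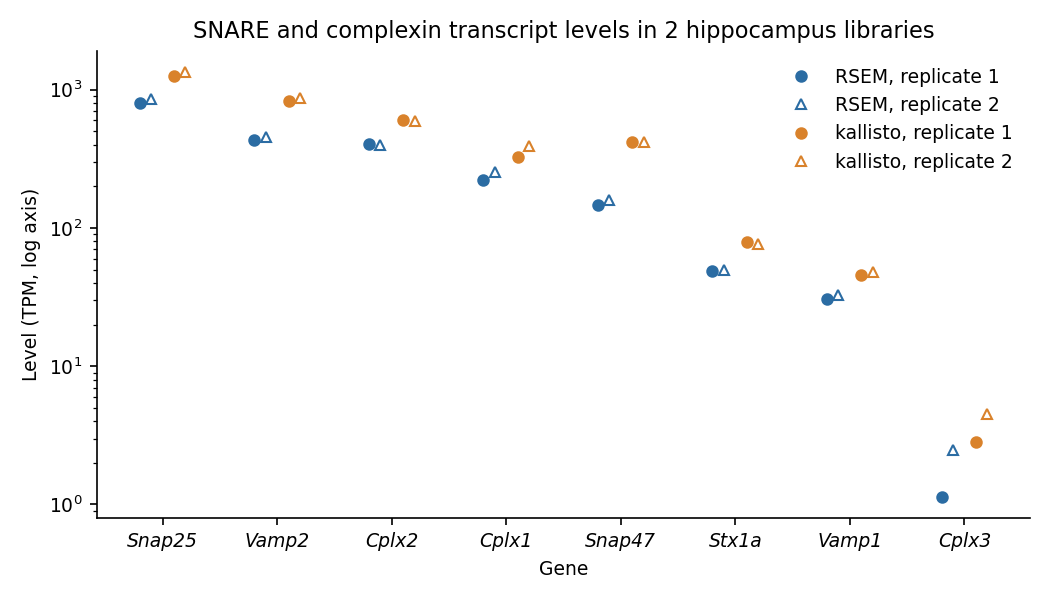
Level of each gene in TPM on a log axis, by library (circle, replicate 1; triangle, replicate 2) and by quantification program (blue, RSEM; orange, kallisto). Snap25 is highest and Cplx3 lowest in both tables, and Snap47 lies below Cplx1 in RSEM but above it in kallisto.

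Snap25 (ENSMUSG00000027273.13, chr2:136713453-136782428, plus strand) codes for the plasma membrane SNARE that contributes a pair of helices to the bundle. It had 801 TPM in replicate 1 and 861 TPM in replicate 2, or 831 ± 42.0 TPM, from 31848 and 39782 counts. Its level ranked 32 among the 22028 protein-coding genes and was the highest of the 8 genes in each library.

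Snap47 (ENSMUSG00000009894.15, chr11:59407134-59451186, minus strand) codes for a SNAP-25 relative that lacks the membrane-anchoring cysteines and is found largely on intracellular membranes. It had 147 TPM in replicate 1 and 159 TPM in replicate 2, or 153 ± 8.69 TPM, and ranked 479. Snap25 was 5.43 ± 0.0334 times as high as Snap47 in RSEM and 3.10 ± 0.143 times in kallisto. Snap47 was thus the member whose level depended most on the program, with 419 TPM in each library by kallisto, 2.74 times its RSEM level. Only 1.22% of the 8097 protein-coding genes had a larger factor. The counts differed little between programs, 5345 and 6866 in RSEM against 5553 and 7120 in kallisto.

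Exons of Snap47 share 307 bases with Jmjd4 on the opposite strand, which had 11.5 and 11.6 TPM. The posterior SD of the Snap47 count was 0 in both libraries, so the program left no Snap47 reads split with another gene.

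Stx1a (ENSMUSG00000007207.10, chr5:135023482-135051100, plus strand) codes for syntaxin-1A, the plasma membrane partner of SNAP-25. It had 48.9 TPM in replicate 1 and 49.96 TPM in replicate 2, or 49.4 ± 0.728 TPM, and ranked 2093. Snap25 was 16.8 ± 0.603 times as high. The values of the libraries lay closest together, relative to their mean, for Cplx2 and then for Stx1a.

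Vamp2 (ENSMUSG00000020894.16, chr11:69088490-69092384, plus strand) codes for synaptobrevin-2, the main vesicle SNARE of forebrain synapses. It had 430 TPM in replicate 1 and 454 TPM in replicate 2, or 442 ± 16.9 TPM, and ranked 85. The Vamp2 to Snap25 ratio was 0.537 and 0.528, or 0.532 ± 0.00662, and in kallisto it was 0.653 ± 0.00486.

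Vamp1 (ENSMUSG00000030337.16, chr6:125215551-125245964, plus strand) codes for synaptobrevin-1, best known from the spinal cord, brainstem and neuromuscular junction. It had 30.4 TPM in replicate 1 and 33.0 TPM in replicate 2, or 31.7 ± 1.82 TPM, and ranked 3489. Vamp2 was 14.1 times as high in replicate 1 and 13.8 times in replicate 2. Cholinergic motor and hindbrain markers were at or near 0, with 0 of 4 at 1 TPM or more, a summed level of 0.45 and 0.28 TPM, and Slc5a7 and Chat at 0.345 and 0.01 TPM in the mean. Of the 4 fast-spiking interneuron markers, 2 had at least 10 TPM, Kcnc1 (46.9 ± 0.898 TPM) and Pvalb (25.1 ± 1.48 TPM). The 4 markers summed to 85.8 and 88.2 TPM. Their part in the Vamp1 level was not tested.

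Cplx2 (ENSMUSG00000025867.8, chr13:54371349-54383917, plus strand) codes for complexin-2, which is abundant in excitatory hippocampal neurons. It had 402 TPM in replicate 1 and 397 TPM in replicate 2, or 399 ± 3.53 TPM, and ranked 93. By counts, with 40391 and 46863, it was the highest of the 8 genes, since its single annotated transcript is 4928 bases long.

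Cplx1 (ENSMUSG00000033615.9, chr5:108518554-108550024, minus strand) codes for complexin-1, which is often described in inhibitory neurons. It had 221 TPM in replicate 1 and 252 TPM in replicate 2, or 237 ± 22.0 TPM, and ranked 232. The Cplx2 to Cplx1 ratio was 1.82 in replicate 1 and 1.57 in replicate 2, a mean of 1.69 ± 0.172. Complexin-2 RNA was thus the more abundant in both libraries, and the ratio was 3.91 ± 0.398 on counts not divided by length. The 6 interneuron markers summed to 421 TPM in replicate 1 and 472 TPM in replicate 2, led by Sst (200 ± 26.6 TPM) and Gad1 (143 ± 0.219 TPM). Sst was the higher in replicate 2, with 181 and 219 TPM, while Gad1 had 143.2 and 142.9 TPM. The 5 pan-neuronal markers summed to 1669 and 1841 TPM. The part of any of these in the Cplx1 difference was not tested.

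Cplx3 (ENSMUSG00000039714.9, chr9:57599992-57606281, minus strand) codes for the membrane-anchored complexin-3, known from retinal ribbon synapses and from neurons of the deepest cortical layer. It had 1.14 TPM in replicate 1 and 2.46 TPM in replicate 2, or 1.80 ± 0.933 TPM, on 29 and 59 counts. Those counts are above the 3 counts that a count of 0 allows, and the gene ranked 12133. Cplx1 was 194 times as high as Cplx3 in replicate 1 and 103 times in replicate 2, so the size of that gap is poorly fixed. The 3 retina markers examined were below 1 TPM, with a summed level of 0.890 and 0.670 TPM, Rcvrn at 0.760 and Prph2 at 0.02 TPM. The 3 markers of cortical layer 6b and subplate had mean levels between 1 and 10 TPM, led by Moxd1 (3.79 ± 0.827 TPM) and Ccn2 (3.54 ± 0.820 TPM). They summed to 6.95 TPM in replicate 1 and 9.92 TPM in replicate 2. Of the 4 neurogliaform interneuron markers, 3 had at least 10 TPM, led by Npy (55.1 ± 3.57 TPM) and Reln (20.7 ± 2.34 TPM). These 4 summed to 101 TPM in replicate 1 and 106 TPM in replicate 2. The part of any of these cells in the Cplx3 level was not tested.

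The rest of the fusion machinery places these levels. Of 13 other syntaxins examined, 10 had at least 10 TPM, and the median of the 13 was 15.9 TPM. The highest of them were the endosomal Stx7 (59.7 ± 5.28 TPM) and Stx6 (51.6 ± 0.820 TPM) of the trans-Golgi and endosomes. Stx1a thus lay just below Stx6 in both libraries. In RSEM neither of the widely expressed SNAP-25 relatives reached 10 TPM, with Snap23 at 7.45 ± 1.30 TPM and Snap29 at 8.99 ± 0.0919 TPM. In kallisto both did, in the reverse order, with means of 22.9 TPM for Snap23 and 13.2 TPM for Snap29. Snap25 and Snap47 exceeded both in each library.

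Among the other R-SNAREs, the class to which VAMP proteins belong, 5 of 7 reached 10 TPM. Their highest were Vamp4 (42.5 ± 1.22 TPM) of the trans-Golgi, Sec22b (29.6 ± 1.00 TPM) of the endoplasmic reticulum, and Ykt6 (29.4 ± 0.672 TPM). Vamp4 lay above Vamp1 in both libraries. Vamp2 exceeded all 7. The remaining complexin, Cplx4, another retinal form, was listed at 0 TPM in replicate 1 and 0.02 TPM in replicate 2.

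Proteins that fold or disassemble SNAREs were among the most abundant of this machinery, with 9 of the 10 examined at 10 TPM or more and a median of 121 TPM. They were led by the chaperone Hspa8 (921 ± 29.1 TPM), which helps fold SNAP-25 but also serves every cell type, and by the ATPase Nsf (517 ± 30.2 TPM). Of 11 regulators, 9 reached 10 TPM with a median of 47.3 TPM. They were led by the calcium sensor Syt1 (424 ± 5.95 TPM), by Snph (171 ± 0.0283 TPM), whose product syntaphilin was named for binding syntaxin, and by the priming factor Unc13a (120 ± 5.95 TPM). Syt1 lay close to Vamp2, below it in each library.

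**Figure D2:**
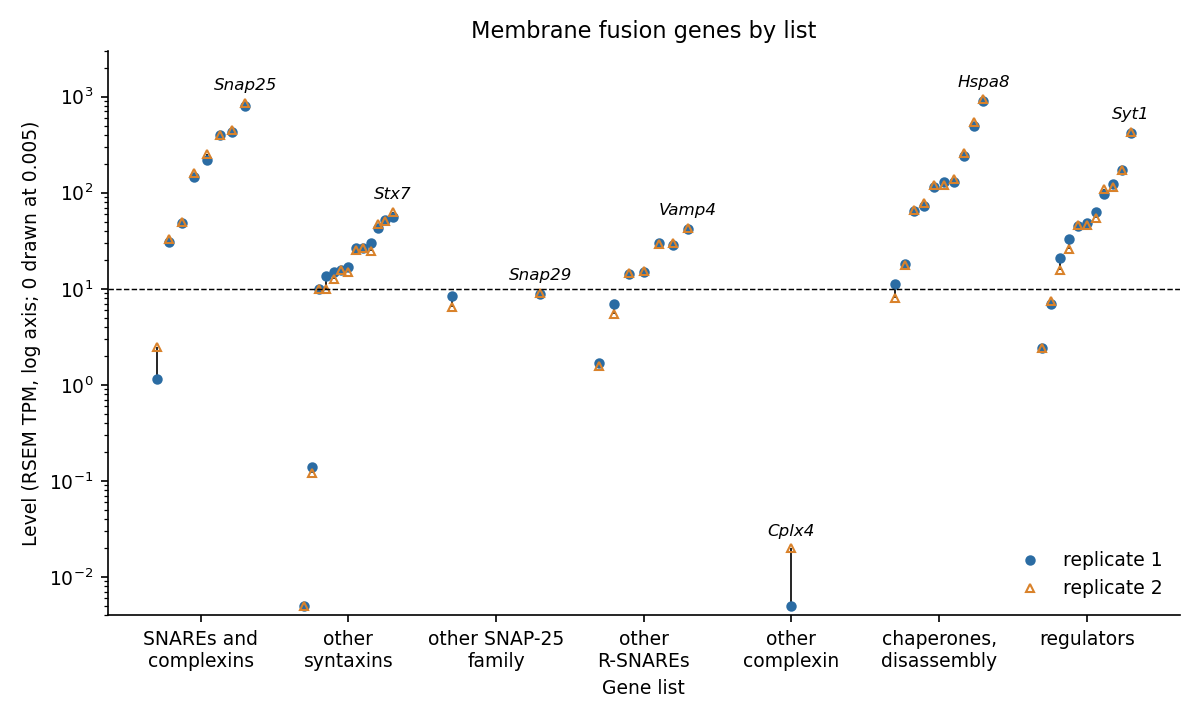
Level of each gene examined in each list in RSEM TPM on a log axis (circle, replicate 1; triangle, replicate 2; a line joins the libraries; values of 0 are drawn at 0.005; the dashed line is 10 TPM). The named gene is the highest of those drawn in its list: Snap25 at 831 TPM, Stx7 at 59.7, Snap29 at 8.99, Vamp4 at 42.5, Cplx4 at 0.01, Hspa8 at 921 and Syt1 at 424.

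Replicates were compared as the log2 ratio of replicate 2 to replicate 1, on counts scaled with the TMM method so that most genes centre on 0. With a minimum mean count of 100, 7 members qualified and 0 of them differed by over 2-fold, where 0.778% of 12719 genes did. The log2 ratios were 0.13 for Snap25, 0.14 for Vamp2, 0.02 for Cplx2, 0.23 for Cplx1, 0.17 for Snap47, 0.09 for Stx1a and 0.15 for Vamp1. The median over all 12719 genes was 0.04. All 7 were above 0 under TMM, as were 60.7% of the 12719 genes. Scaling by the spike-in totals instead moved the log2 ratio of nearly every gene by the same -0.21, which brought the median of all genes to -0.17. On that scale 6 of the 7 were below 0, all but Cplx1, as were 90.5% of the 12719 genes. The sign of 6 of the 7 ratios thus changed between these scalings, while Cplx1 stayed above 0 in both.

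Cplx1 had the largest ratio of the 7, a 1.17-fold difference, and 84.1% of genes lay nearer to 0. The ratio of Cplx3 was 0.83, or 1.77-fold, with an exact binomial 95% interval from its counts of 1.12-fold to 2.87-fold. Such intervals cover counting error only, and Cplx3 was below the count minimum for the comparison.

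**Figure D3:**
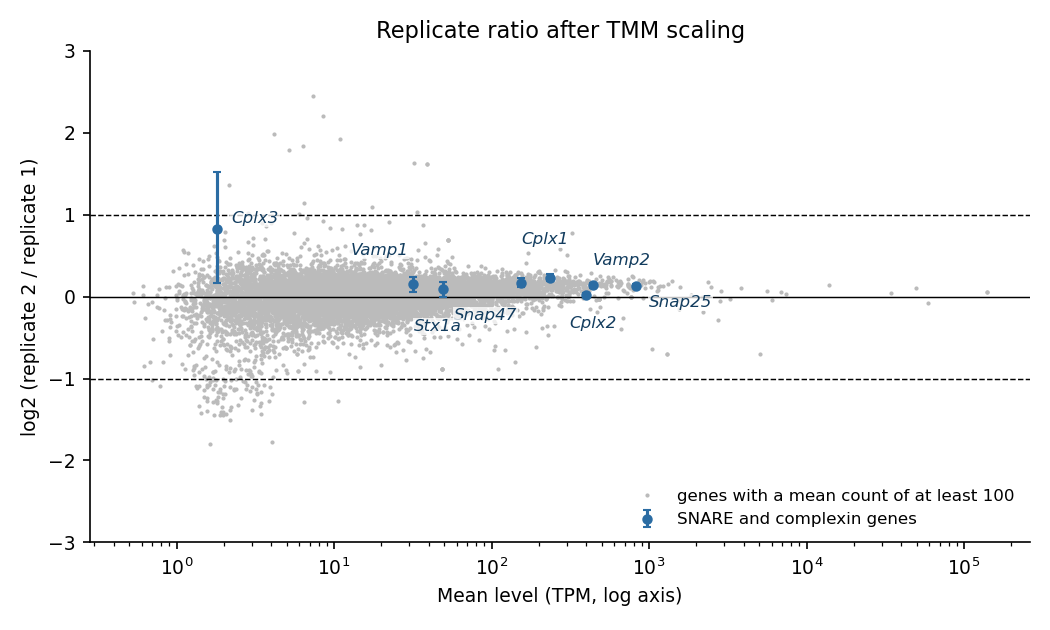
Replicate log2 ratio after TMM scaling against mean level in TPM (log axis). Grey points are the 12719 genes with a mean count of at least 100, of which 5 lie outside the drawn range of -3 to 3; blue points are the 8 genes with 95% counting intervals, and dashed lines mark 2-fold. Of the 8 genes, 7 lie within 0.02 to 0.23, and Cplx3 at 0.83.

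The 8 genes have 34 annotated transcripts, of which 20 had at least 1 TPM in the mean. In RSEM each of the 8 genes had 1 transcript with a mean share of TPM of 50% or more, and in kallisto 7 did. Cplx2 has a single annotated transcript, so its share of 100% was fixed in advance. The same counts over all genes and transcripts are not given here, so these are not read as particular to the 8 genes. For Cplx3 the leading transcript was Cplx3-203, at 51.5 ± 26.5% on 3.41 and 18.6 counts. By share of counts Cplx3-201 led with 69.7%. For Snap25, the SNAP-25b transcript Snap25-201 took 87.9% in replicate 1 and 87.4% in replicate 2, and the SNAP-25a transcript Snap25-202 took 11.5% and 12.3%. The b to a ratio was 7.67 in replicate 1 and 7.09 in replicate 2, and in kallisto 6.41 and 6.18. SNAP-25b is known as the mature brain form and SNAP-25a as the form of early development, and at 25 days the b form was the higher one in both libraries and both programs. The annotated transcripts also differ in their last exon, of 1354 bases in Snap25-201 and 277 in Snap25-202, so the split does not rest on exon 5 alone. The part of each exon was not tested.

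**Figure D4:**
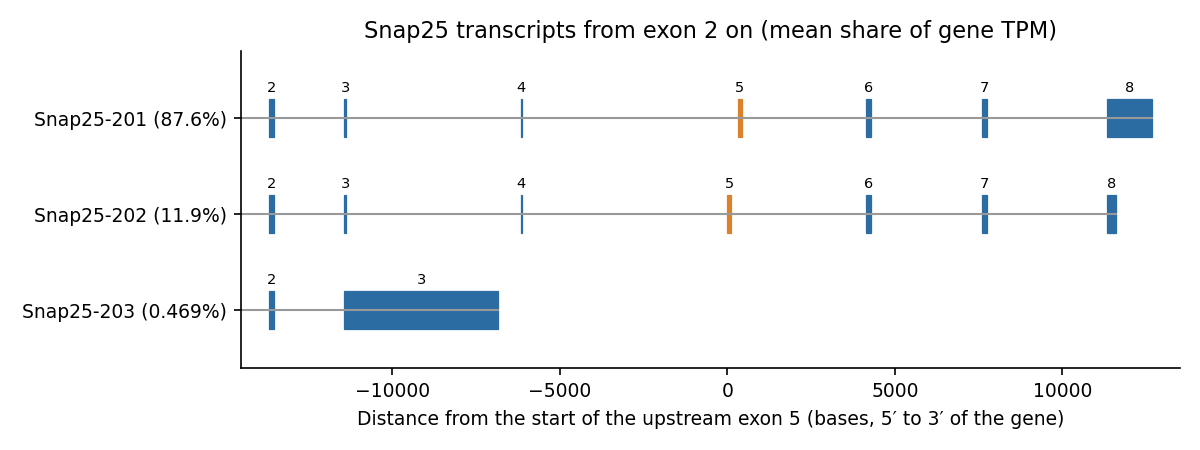
Exons of the annotated Snap25 transcripts from exon 2 on, to scale in bases from the start of the upstream exon 5; orange marks exon 5, grey lines are introns, and the percentage is the mean share of gene TPM in RSEM. Snap25-201 (87.6%) uses the downstream exon 5 and a longer last exon, Snap25-202 (11.9%) the upstream one, and Snap25-203 (0.469%) ends within the intron after exon 3.

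Vamp2 and Snap47 were split differently by the programs. Vamp2-201, the transcript that codes for synaptobrevin-2, took 94.6% and 96.0% of Vamp2 TPM in RSEM but 74.6% and 74.1% in kallisto. The non-coding Vamp2-204, of 918 bases, took 0.993% and 0.813% in RSEM but 23.3% and 24.1% in kallisto. For Vamp2, each program thus gave nearly the same split in both libraries, and the gap between programs was far larger than the replicate spread.

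Snap47-201, which carries the longest coding sequence of the gene (1239 bases), took 95.8% and 96.8% in RSEM but 46.9% and 52.2% in kallisto. The short Snap47-206, of 502 bases, took 0.367% and 0.188% in RSEM but 40.0% and 42.5% in kallisto. It received 4.52 and 2.95 counts in RSEM and 452 and 577 in kallisto. Its effective length, by which counts are divided, was 403 bases in RSEM and 169 in kallisto. Most Snap47 counts went to Snap47-201 in both programs, 5274 and 6781 in RSEM against 4866 and 6439 in kallisto.

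Vamp1-201 took 81.2% of Vamp1 TPM in replicate 1 and 83.6% in replicate 2, and Vamp1-203 took 15.1% and 12.7%. These transcripts differ at the end of their coding sequences, by 14 bases in Vamp1-201 and 11 in Vamp1-203, so they code for different carboxyl ends. In kallisto their shares were 73.8% and 76.4% against 18.3% and 16.7%. The Vamp1-201 to Vamp1-203 ratio was 5.98 ± 0.856 in RSEM and 4.30 ± 0.386 in kallisto, so Vamp1-201 led in every case.

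Stx1a-201 took 86.0% and 85.5% of Stx1a TPM, and no other Stx1a transcript averaged 10%. Cplx1-201 took 100% of Cplx1 in RSEM and 97.7 ± 3.31% in kallisto. The Cplx3 transcripts were not ranked alike in the libraries by RSEM. Cplx3-203 took 32.7% in replicate 1 and 70.2% in replicate 2, Cplx3-202 34.5% and 6.53%, and Cplx3-201 32.7% and 23.3%. With replicate 1 alone, no Cplx3 transcript would take 50%. In kallisto Cplx3-203 took 76.8% and 68.9%.

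**Figure D5:**
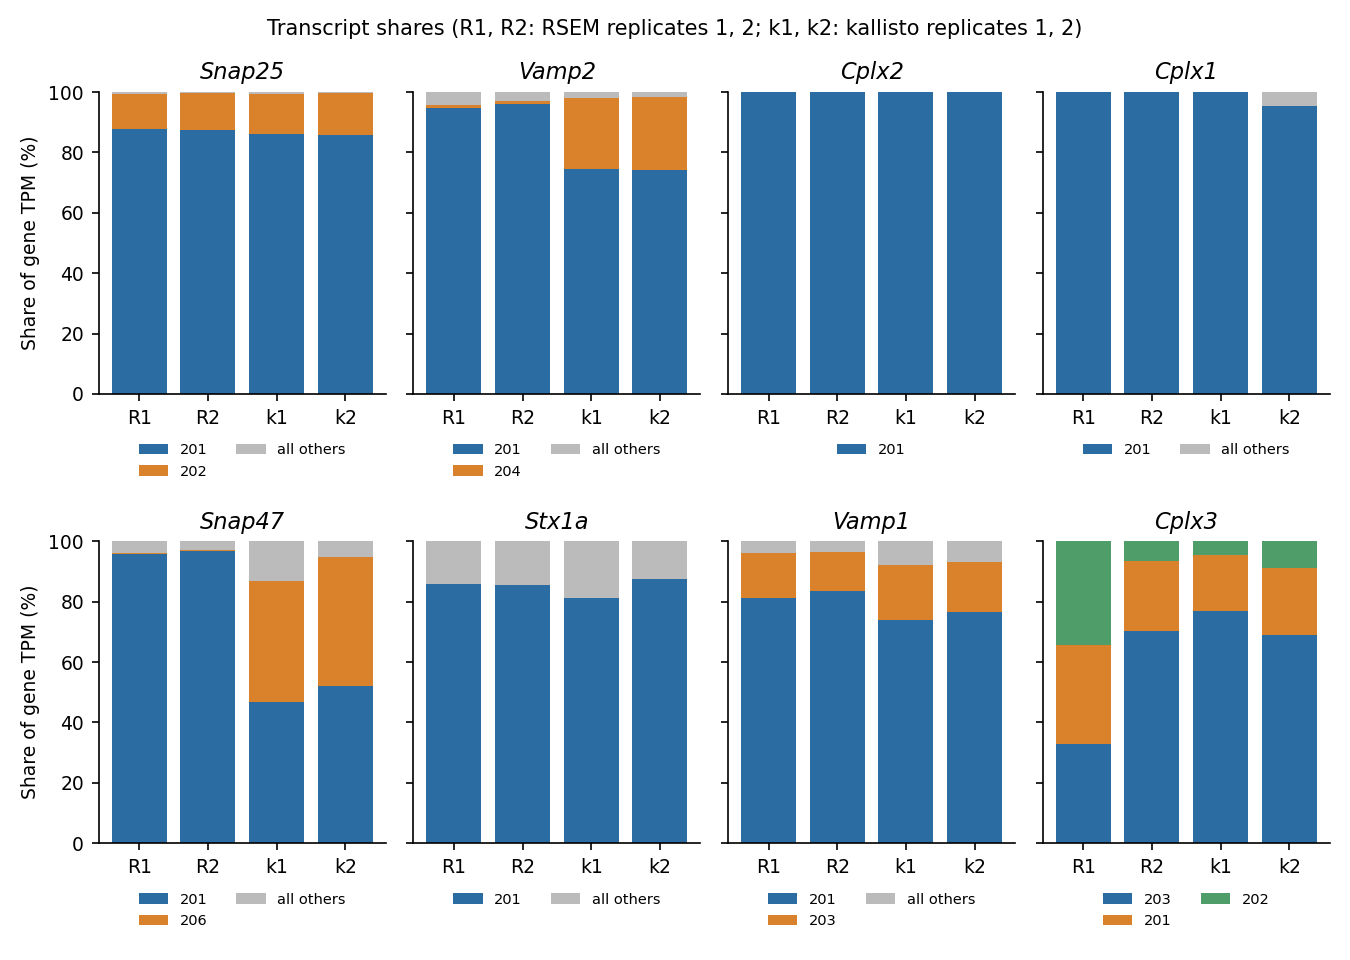
Share of each gene's TPM (%) taken by its transcripts, in RSEM (R1, R2) and kallisto (k1, k2) for replicates 1 and 2; colours are transcripts averaging at least 10% in either program and grey is all others. The RSEM bars of the replicates are nearly equal for all genes but Cplx3, while Vamp2 and Snap47 differ between programs, with Snap47-206 at 0.367% and 0.188% in RSEM and 40.0% and 42.5% in kallisto.

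1 member transcript with a mean count of at least 100 was over 2-fold apart between the replicates. It was singled out after its values were seen. Snap25-203, which runs on into the intron after exon 3 and has no annotated coding sequence, had 518 counts in replicate 1 and 291 in replicate 2. Its share of Snap25 TPM was 0.649% and 0.289%. The log2 ratio was -1.02 under TMM, -1.23 with spike-in scaling and -0.93 in kallisto, where it was less than 2-fold. Of the 11 member transcripts with a mean count of at least 100, it was the single one over 2-fold apart. The counts over all retained-intron and protein-coding transcripts with that minimum are given next.

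Among transcripts of all genes with a mean count of at least 100, most retained-intron ones were lower in replicate 2. Their median log2 ratio was -0.46 over 2253 of them, with 81.4% below 0. Over 2-fold lower were 162 of these (7.19%), and 13 were over 2-fold higher. Among 17436 protein-coding transcripts with the same minimum the median was 0.07. Of those, 356 (2.04%) were over 2-fold lower and 445 over 2-fold higher. Of the 10 protein-coding member transcripts with a mean count of at least 100, 0 were over 2-fold lower. The part of the library-wide shift in the Snap25-203 value was not tested. The intron-retaining form was under 1% of Snap25 TPM in each library.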

How the data were processed

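Hippocampus total RNA of 2 libraries (1 group) was sequenced with ERCC spike-ins added. The authors deposited, per library, expected counts and TPM per gene and per transcript in the RSEM layout, and estimated counts and TPM per transcript in the kallisto layout, per the file headers. The deposited notes name the mm10 build and GENCODE M21. Which aligner, versions and strand settings were used is not given in the sources used here. The mice are hybrids, and the values rest on the mm10 reference alone. The deposited posterior SD of each count was used as a score of assignment uncertainty, and the deposited length and effective length columns as bases.

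From these, means, SDs, ratios within a library and transcript shares were computed on TPM. A kallisto gene level is the sum over its transcripts. Expected counts were rounded, 26249 rows that name no gene (spike-ins and other entries) were left out, and replicate ratios used TMM factors from edgeR 4.0.16 (under R 4.3.3), adding a prior count of 0.5, for genes averaging 100 counts or more; the ratio code was tested on simulated data. Alternatives were DESeq2 1.42.0 size factors, spike-in totals, a prior count of 2, TPM with pseudocounts of 0.5 and 0.1, kallisto, counts not divided by length, other minimums, and leaving out a replicate. No test between groups exists, since there is 1 group; no likeness of pattern can be read from 2 libraries. Genes named are the 8 members, their transcripts with at least 10% of gene TPM in either table, up to 3 of the highest genes of each fusion list (all of lists of 4 or fewer) and the 2 highest markers of a list; some genes of these lists are not reported here and were left out of the counts; Snap25-203 is named outside this rule, as are genes that overlap a member. The members, lists and rules were chosen with earlier results of these data known. Floors of 3 counts and exact binomial 95% intervals cover counting error only.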

Additional observations from a re-analysis of the deposited data

How the results depend on the processing

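The order of the 8 levels held in each library alone, and in kallisto except that Snap47 passed Cplx1. Kallisto levels were higher for all 8 genes: Snap25 1300.6, Vamp2 849.5, Cplx2 596, Snap47 419, Cplx1 359, Stx1a 77.3, Vamp1 47.0 and Cplx3 3.66 TPM. On counts not divided by length, the ratios were 10.5 for Vamp2 to Vamp1, 3.91 for Cplx2 to Cplx1, 275 for Cplx1 to Cplx3, 5.88 for Snap25 to Snap47 and 0.572 for Vamp2 to Snap25. In kallisto they were 18.1 for Vamp2 to Vamp1, 3.10 for Snap25 to Snap47 and 0.653 for Vamp2 to Snap25. The kallisto shares were 97.7% for Cplx1-201, 85.9% for Snap25-201, 49.6% for Snap47-201, 84.3% for Stx1a-201, 75.1% for Vamp1-201 and 74.4% for Vamp2-201. As shares of counts they were 21.6% for Cplx3-203 (Cplx3-201 then led with 69.7%), 93.1% for Snap25-201, 98.7% for Snap47-201, 91.5% for Stx1a-201 and 98.3% for Vamp2-201. The causes of the gaps between programs were not tested. Instead of 99 genes over 2-fold apart between replicates there were 936 with a count minimum of 10, 6540 with no filter, 153 with spike-in totals and 54 on TPM with a pseudocount of 0.5. Members with at least 10 TPM numbered 7 in kallisto and without either replicate. They numbered 8 at a minimum of 1 TPM, which 58.9% of protein-coding genes reached, and 5 at 50 TPM. A leading share of 75% was reached by 7, among them Cplx2 with its single annotated transcript. Shares over all genes are not given here for the 50 TPM and 75% settings. Cplx3, with 29 and 59 counts, is limited by depth. No paired analysis was possible because the libraries form 1 group.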
